A study of Mus musculus with 8 samples.

Results

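The complement system is a cascade of blood and tissue proteins that tags cells and debris for removal. In the classical pathway, the proteases C1r and C1s cleave C4 and C2. In the alternative pathway, factor D cleaves factor B once it is bound to C3b. Both routes converge on C3, whose fragments coat surfaces and whose cleavage leads on to C5 and the terminal proteins. The C1 inhibitor holds C1r and C1s in check, and most of these proteins are made by the liver, with further production in connective tissue and fat. Of 28956 genes listed in the count tables, 6 complement genes were followed here, chosen by symbol and with earlier results of these data known. They were C1ra (C1r protease), C4b (component C4), C3 (the central component), Cfb (factor B), Cfd (factor D, also called adipsin) and Serping1 (the C1 inhibitor).

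The cells were non-haematopoietic stromal cells from the bone of wild-type C57BL/6 females, enriched with magnetic beads that removed CD45+, CD117+ and lineage-marked blood cells, and measured by droplet-based single cell RNA sequencing. In the Fracture group the left leg was broken at 10 weeks of age, stabilised with an intramedullary nail and collected at post-fracture day 14, and the nail was removed. Control females were 12 weeks old and unfractured, with no nail and no sham operation named. By the labels each group held 2 numbered preparations and each preparation 2 libraries, 8 libraries in all, and how many animals made up a preparation is not given in the sources used here. The libraries of a preparation were summed, so n = 2 preparations per group stood behind every test, and p-values measured only the spread between these preparations.

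The libraries held 56543151 to 89126291 unique molecular identifiers (UMIs, each standing for 1 captured transcript), and 45328 of 48903 barcodes passed the filters on cells. The Control tables reached down to barcodes of 1 UMI, whereas the smallest Fracture barcode held 1929 UMIs, and the median cell held 7711 UMIs in Control and 11351 in Fracture. Libraries shared at most 46 barcodes. Clusters made without the complement genes were named from marker genes. Bone mesenchymal stromal cell (BMSC)-like cells carried all 7 of their markers, among them Cxcl12, Lepr and Adipoq, endothelial-like cells all 7, among them Emcn and Cdh5, and fibroblast-like cells 6 of 7, among them Prg4 and Dpt. Osteoblast-like cells carried 5 of 7, chondrocyte-like cells 6 and 8 of 8 in their clusters, and smooth muscle-like cells 6 of 7. The names therefore rested on markers of bone stroma, but their levels differed between the groups. Levels are given as CPM, the UMIs of a gene scaled to one common total in every sum of cells. Over BMSC-like cells, the summed level of the 7 BMSC markers was 27590 and 28846 CPM in Control and 2033 and 2374 CPM in Fracture, with each of the 7 lower in Fracture.

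In unfractured bone, 4 of the complement genes were highest in BMSC-like cells, and these 4 fell there after fracture. C4b, C1ra, C3 and Serping1 dropped to between 0.0708 and 0.251 of the Control level. The size depended on how cells were assigned. When each cell was placed by its marker sum in place of clusters, the log2 changes were -1.65 for C1ra, -1.81 for C4b, -0.99 for C3 and -1.19 for Serping1, and C3 was no longer called. Marker sums placed 2125 and 1482 Control cells and 126 and 157 Fracture cells as BMSC-like. Clusters had placed 2568 and 1688 Control cells and 1005 and 1079 Fracture cells there. In the BMSC-like class drawn by clusters, 51.6% of the 14713 genes tested were called changed, beside 4 of the 5 members tested. The changes were not alike in the other classes. C3 rose in chondrocyte-like cells and in fibroblast-like cells, the latter not called with cells placed by marker sum. C4b fell in each of the 6 stromal classes, though not in fibroblast-like cells placed by marker sum. Its calls in smooth muscle-like and endothelial-like cells were lost without the cells called as doublets. Cfd fell in endothelial-like cells. Cfb was almost undetected. Outside BMSC-like cells and the subclasses drawn largely from them, the calls of single stromal classes were lost when either Fracture preparation was left out, except that of C4b in chondrocyte-like cells.

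Promoter sequences are shown first for C1ra and C3, 2 members that fell together in BMSC-like cells. RefSeq promoter entries (GRCm38.p6) were found for 3 of the 6 members, C1ra, C3 and Cfd, and the 250 bases before the RefSeq start were searched on both strands. The RefSeq start of C1ra lies downstream of its GENCODE start, so most of its stretch lies inside the gene as GENCODE draws it. Upstream of the GENCODE start at 124512405, the search covered only the bases from 124512371 on. The motifs were TATAAA (bound by TBP), TTGCNNCAA and TTGCNNAAT (C/EBP type), TTCNNNGAA (STAT type), GAAANNGAA (interferon response type) and GGGANTTTC (NF-kB type). C3 held 1 match, to TTGCNNAAT on the + strand, from 45 to 37 bases before the start, and capitals mark it. This motif was found in 2.11% of the 32851 promoters of the same length, and the shares were 12.4% for TATAAA, 1.74% for TTGCNNCAA, 7.02% for TTCNNNGAA, 7.13% for GAAANNGAA and 0.941% for GGGANTTTC. The stretches of C1ra and Cfd held none of the 6. C1ra lies at chr6:124512371-124512620 on the + strand and C3 at chr17:57228137-57228386 on the - strand.
C1ra: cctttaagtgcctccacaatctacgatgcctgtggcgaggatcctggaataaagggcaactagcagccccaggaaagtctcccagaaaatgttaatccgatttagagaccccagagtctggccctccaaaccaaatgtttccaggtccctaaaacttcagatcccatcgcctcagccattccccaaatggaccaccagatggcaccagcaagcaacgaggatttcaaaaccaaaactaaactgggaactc
C3: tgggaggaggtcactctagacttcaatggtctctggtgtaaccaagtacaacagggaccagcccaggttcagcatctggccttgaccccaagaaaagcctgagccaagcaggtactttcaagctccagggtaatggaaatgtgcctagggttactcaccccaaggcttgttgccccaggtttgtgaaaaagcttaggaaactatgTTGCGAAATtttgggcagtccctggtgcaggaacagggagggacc

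C1ra encodes the protease that starts the classical cascade by cleaving itself and then C1s. Its gene spans 124512405 to 124523443 on chromosome 6 (GRCm38, GENCODE M21). In BMSC-like cells its level was 348 and 423 CPM in Control and 71.2 and 70.1 CPM in Fracture. The Fracture values lay close together and far below both Control values, and the log2 change was -2.26 ± 0.12 (SE, n = 2 preparations per group, edgeR quasi-likelihood test, adjusted p = 0.00158). In smooth muscle-like cells, the second highest class, it was 72.2 and 63.1 CPM in Control and 53.8 and 37.8 CPM in Fracture. These groups did not overlap, but the change was not called (adjusted p = 0.119 by edgeR).

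Fibroblast-like cells had C1ra at 49.1 and 50.1 CPM in Control and at 65.4 and 62.8 CPM in Fracture, a log2 difference of 0.45 ± 0.11 that missed the threshold (adjusted p = 0.0514 by edgeR). Chondrocyte-like cells had 7.22 and 4.55 CPM in Control and 10.6 and 9.58 CPM in Fracture, a called rise of 0.90 ± 0.22 on the log2 scale (adjusted p = 0.0384 by edgeR). The larger of the 2 chondrocyte-like clusters, led by Col10a1 and Ihh, gave 0.76 ± 0.17 alone (adjusted p = 0.0307 by edgeR). The smaller cluster, led by Serpina1d and Rspo4, gave -0.12 (adjusted p = 0.84 by edgeR). The larger cluster held 1167 of 2073 and 404 of 680 cells of the class in Control. In Fracture it held 5639 of 6799 and 5916 of 7131. The part of this shift in the rise of the class was not tested. Endothelial-like cells fell from 19.6 and 14.2 CPM to 8.77 and 7.51 CPM (log2 change -0.94 ± 0.20, adjusted p = 0.0293 by edgeR). Cells called as doublets held 67 of 182 and 39 of 116 of these Control UMIs, and without them the levels were 13.2 and 9.74 CPM against 8.51 and 6.92 CPM and the change was not called (-0.47, adjusted p = 0.15 by edgeR). Doublet calls were uneven between libraries, with 211 of 5798 and 1 of 6069 cells in Fracture preparation 1 and 5 of 6366 and 198 of 6419 in Fracture preparation 2, so that leaving them out hardly touched 1 library of each. Osteoblast-like cells, at 5.82 and 4.93 CPM in Control and 4.4 and 3.72 CPM in Fracture, were not called (adjusted p = 0.0853 by edgeR). The order of the Control means was therefore BMSC-like, smooth muscle-like, fibroblast-like, endothelial-like, chondrocyte-like and osteoblast-like cells, and the ranges of the last 2 overlapped.

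**Figure D1:**
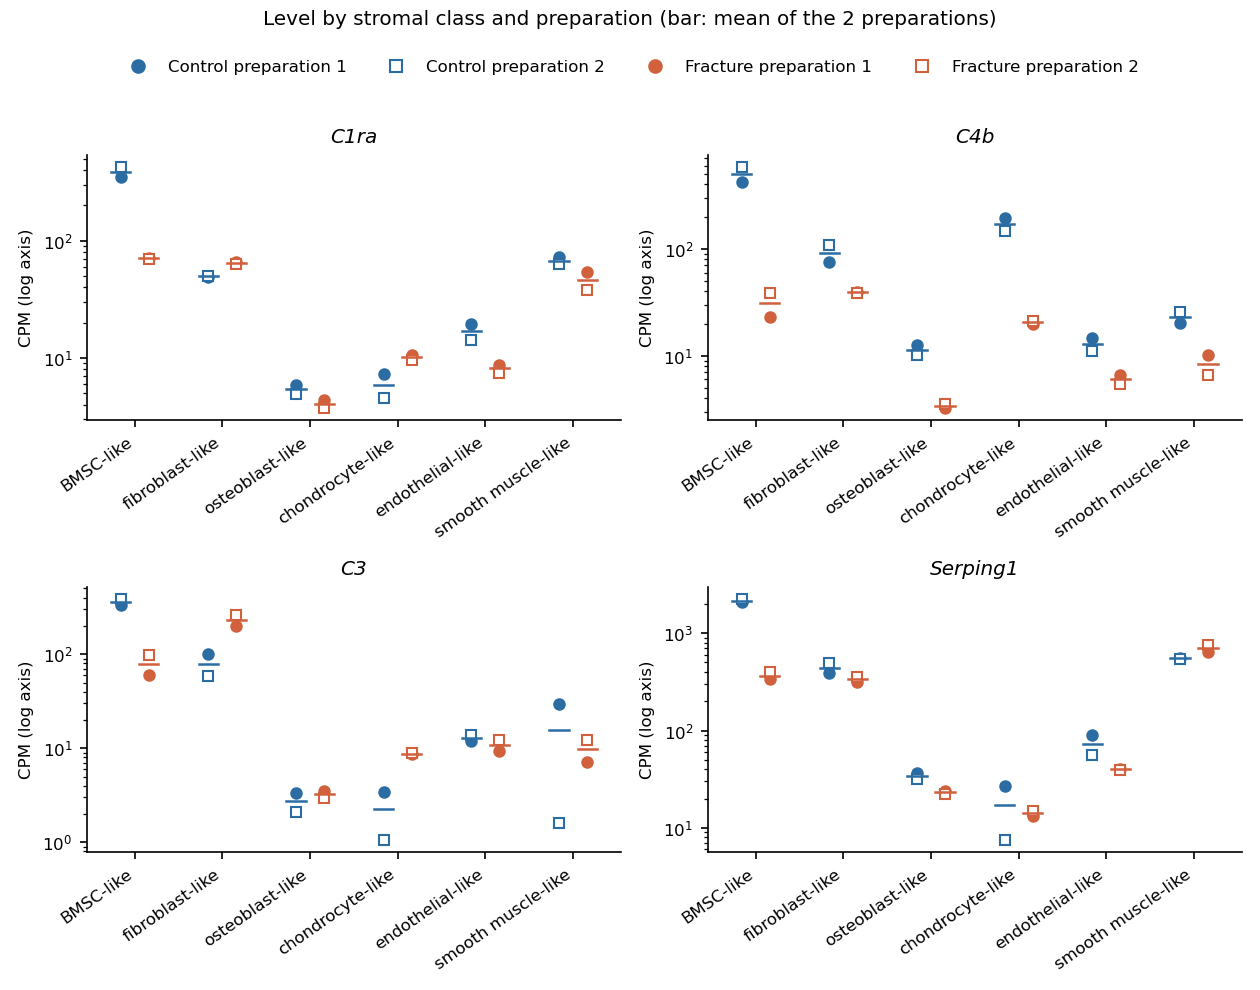
Levels of C1ra, C4b, C3 and Serping1 in CPM (log axis) in the 6 stromal classes, with circles for preparation 1, open squares for preparation 2 and a bar for their mean. In BMSC-like cells all 4 genes sat lower in both Fracture preparations (Serping1 at 337 and 397 CPM) than in both Control preparations (2097 and 2235 CPM), whereas C3 in fibroblast-like cells sat higher (202 and 258 against 99.9 and 58.2 CPM).

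C4b encodes complement component C4, the shared substrate of the classical and lectin pathways. It spans 34728380 to 34743882 on chromosome 17 (GRCm38) beside a near-identical copy, C4a. Of 341 windows of 60 bases in the last 400 bases of the C4b transcript, 143 (41.9%) were also present in C4a, so reads could be split between them. C4a held 38 to 45 UMIs per preparation against 2441 to 13188 for C4b. In BMSC-like cells C4b was 422 and 578 CPM in Control and 23.2 and 39.0 CPM in Fracture. The log2 change of -3.82 ± 0.34 (adjusted p = 0.00259 by edgeR) corresponded to a 14.1-fold fall, against -1.81 with cells placed by marker sum (adjusted p = 0.0241 by edgeR). Chondrocyte-like cells, which are cartilage cells and the main cells of the callus, had 194 and 146 CPM in Control and 19.8 and 21.3 CPM in Fracture. This was the second largest fall of C4b (-2.89 ± 0.16, adjusted p = 0.0018 by edgeR). Both chondrocyte-like clusters showed it, with 107 and 91.4 CPM against 10.1 and 9.99 CPM in the larger one (-3.20 ± 0.11, adjusted p = 0.000667 by edgeR) and 311 and 221 CPM against 72.0 and 84.5 CPM in the smaller one (-1.66 ± 0.17, adjusted p = 0.0144 by edgeR).

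C4b also fell in the 4 other stromal classes. Fibroblast-like cells went from 76.0 and 108 CPM to 39.8 and 38.7 CPM (-1.14 ± 0.18, adjusted p = 0.0195 by edgeR). Osteoblast-like cells went from 12.5 and 10.1 CPM to 3.22 and 3.53 CPM (-1.80 ± 0.15, adjusted p = 0.00693 by edgeR). Erythroid-like cells, used below as background, had 4.95 and 1.59 CPM of C4b in Control. In Fracture they had 0.495 and 0.355 CPM, from 1 UMI in each preparation, and were not tested. Granulocyte-like cells had 8.23 and 5.36 CPM in Control and 6.96 and 4.07 CPM in Fracture. The part of such a background in the falls at low levels was not tested. The fall in fibroblast-like cells was not seen when each cell was placed by its marker sum in place of clusters (0.16, adjusted p = 0.856 by edgeR). Smooth muscle-like cells went from 20.4 and 25.9 CPM to 10.0 and 6.54 CPM (-1.42 ± 0.32, adjusted p = 0.0245 by edgeR). Endothelial-like cells went from 14.5 and 11.1 CPM to 6.62 and 5.39 CPM (-0.98 ± 0.20, adjusted p = 0.0274 by edgeR). The calls in smooth muscle-like and endothelial-like cells were lost without the cells called as doublets. In smooth muscle-like cells the change without them was -0.94 (adjusted p = 0.262 by edgeR). Doublets held 72 of 135 and 51 of 91 C4b UMIs of the endothelial-like Control cells, and without them the change there was -0.19 (adjusted p = 0.656 by edgeR). BMSC markers were lower in Fracture in each of these 4 classes too. Their sum was 701 and 709 CPM in Control and 362 and 388 CPM in Fracture in fibroblast-like cells (5 of 7 lower in both Fracture preparations and 1 higher). It was 366 and 292 CPM against 180.4 and 194 CPM in osteoblast-like cells (6 of 7 lower) and 1902 and 1719 CPM against 1096 and 905 CPM in smooth muscle-like cells (4 of 7 lower). Their part in the C4b falls was not tested.

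C3, the point at which all complement routes meet, lies at 57203970 to 57228136 on chromosome 17 (GRCm38). In BMSC-like cells it stood at 335 and 385 CPM in Control and 59.7 and 99.1 CPM in Fracture (log2 change -1.99 ± 0.27, adjusted p = 0.00594 by edgeR). When cells were placed by marker sum, the change was -0.99 (adjusted p = 0.0875 by edgeR) and no longer called. In fibroblast-like cells the direction was the opposite. There C3 was 99.9 and 58.2 CPM in Control and 202 and 258 CPM in Fracture, a 3.03-fold rise (log2 change 1.6 ± 0.30, adjusted p = 0.0303 by edgeR). Both Fracture preparations lay above both Control preparations. Of the 1542 and 2451 C3 UMIs in Fracture, 383 and 629 lay in 25 and 28 cells that the sub-clustering placed as dpMSC-like, and their part in the rise was not tested. With cells placed by marker sum the C3 change was 1.96 and not called (adjusted p = 0.0616 by edgeR). The 2 calls in fibroblast-like cells were lost when either Fracture preparation was left out. Fibroblast-like cells with 10 or more C3 UMIs made up 2.11% and 1.48% of the class in Control and 6.59% and 7.32% in Fracture. Among fibroblast-like genes 17.0% of 12512 were called, and 2 of the 4 members tested were, C3 upwards and C4b downwards.

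Chondrocyte-like cells had little C3, 3.46 and 1.06 CPM in Control and 8.67 and 8.87 CPM in Fracture, yet the rise was called (1.97 ± 0.45, adjusted p = 0.0325 by edgeR). Of the 104 C3 UMIs in Control preparation 1, 50 lay in 65 cells called as doublets, and without doublets the rise was 2.63 ± 0.23 (adjusted p = 0.00305 by edgeR). In this class 37.3% of 17297 genes were called, and 3 of 4 members tested. The smaller chondrocyte-like cluster alone gave 1.32 ± 0.77 (adjusted p = 0.301 by edgeR). Osteoblast-like cells stayed near 3 CPM in every preparation, from 2.13 to 3.48 CPM, with overlapping groups. Endothelial-like cells had 12.0 and 13.7 CPM in Control and 9.4 and 12.3 CPM in Fracture, also overlapping. Most C3 UMIs of the endothelial-like Control cells, 83 of 112 and 82 of 112, were in cells called as doublets. Without them the levels were 3.32 and 3.79 CPM in Control, and the change became a called rise of 1.68 ± 0.29 (adjusted p = 0.0189 by edgeR). In smooth muscle-like cells the Control preparations disagreed, with 29.9 and 1.62 CPM, 48 of the 97 UMIs of preparation 1 lying in doublets, and no change was called (adjusted p = 0.532 by edgeR).

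Serping1 encodes the C1 inhibitor, a serpin that blocks C1r and C1s and also plasma kallikrein, and it lies at 84765387 to 84775444 on chromosome 2 (GRCm38). BMSC-like cells held 2097 and 2235 CPM of it in Control and 337 and 397 CPM in Fracture, a 5.19-fold fall (-2.37 ± 0.14, adjusted p = 0.00158 by edgeR). With cells placed by marker sum it was -1.19 (adjusted p = 0.0209 by edgeR). Smooth muscle-like cells held 560.0 and 542 CPM in Control and 644 and 757 CPM in Fracture. There the Fracture values were the higher ones, but the difference of 0.37 ± 0.15 was not called (adjusted p = 0.124 by edgeR). This reversed the order of the classes, since Serping1 was highest in BMSC-like cells in Control and in smooth muscle-like cells in Fracture. Fibroblast-like cells held 386 and 497 CPM in Control and 312 and 358 CPM in Fracture (adjusted p = 0.228 by edgeR).

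Serping1 fell in osteoblast-like cells, from 36.8 and 31.8 CPM to 24.1 and 22.4 CPM (-0.63 ± 0.09, adjusted p = 0.0174 by edgeR). The summed BMSC markers there were 366 and 292 CPM in Control and 180.4 and 194 CPM in Fracture, and their part in the fall was not tested. In that class 2 of the 4 members tested were called, against 17.3% of 13840 genes. Endothelial-like cells had 89.6 and 55.7 CPM in Control and 40.4 and 39.1 CPM in Fracture, which was not called (adjusted p = 0.0705 by edgeR). Cells called as doublets held 349 of 833 and 226 of 455 of these Control UMIs, and without them the difference was 0.00 (adjusted p = 0.999 by edgeR). Chondrocyte-like cells had 26.9 and 7.47 CPM in Control and 13.4 and 14.8 CPM in Fracture, with overlapping groups, and 474 of the 807 UMIs of Control preparation 1 lay in its 65 doublets.

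**Figure D2:**
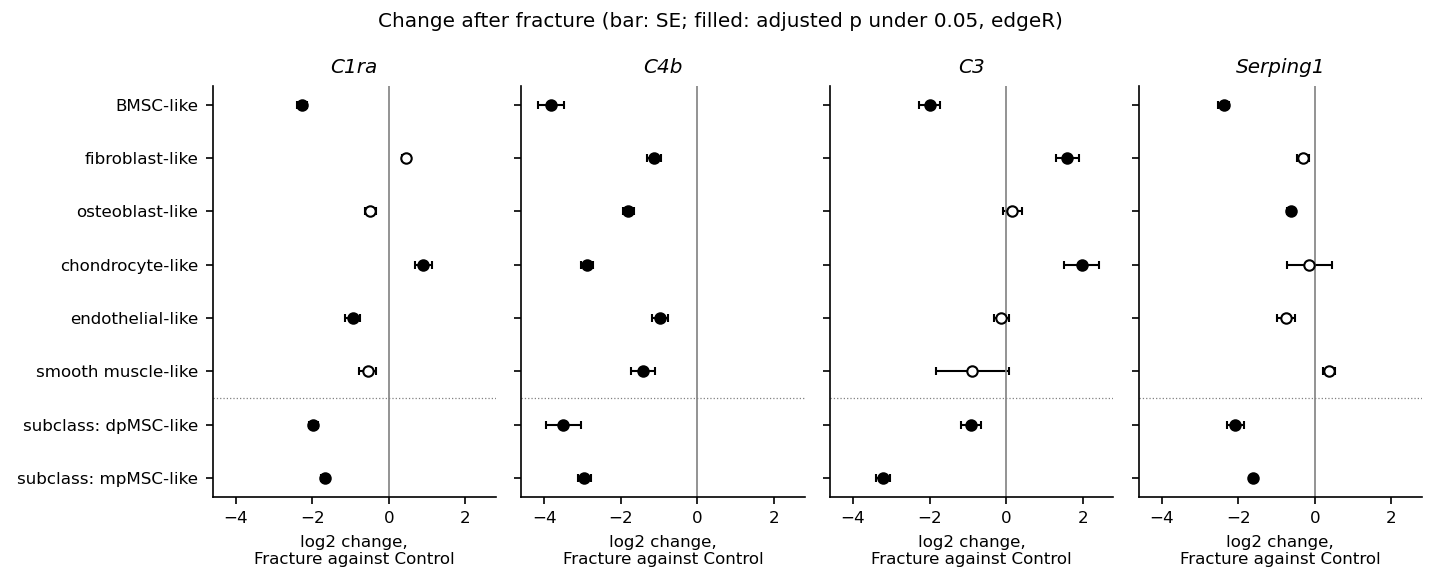
Log2 change of Fracture against Control for C1ra, C4b, C3 and Serping1 in 6 stromal classes. Below the dotted line are 2 subclasses drawn largely from BMSC-like cells. Bars are SE and filled points have an adjusted p under 0.05 by edgeR. C4b lies left of 0 in every row, from -3.82 to -0.98, whereas C3 lies at -1.99 in BMSC-like cells, 1.6 in fibroblast-like cells and 1.97 in chondrocyte-like cells.

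The difference of the fracture change between classes was tested directly, with the preparation as a block. C1ra, C4b, C3 and Serping1 each changed further downwards in BMSC-like than in fibroblast-like, osteoblast-like, chondrocyte-like and endothelial-like cells. Of these differences, 4 did not pass in every alternative run. Placing cells by marker sum was not run for these differences. Against endothelial-like cells, C1ra was not called without Fracture preparation 1 (-1.17, adjusted p = 0.162 by edgeR) or 2 (-1.37, 0.123), nor was Serping1 (-1.47, 0.0993, and -1.75, 0.0709), and C4b was not called without Fracture preparation 1 (-2.30, 0.0587). The fourth was C4b against chondrocyte-like cells. Against fibroblast-like cells the difference was -2.72 for C1ra, -2.74 for C4b, -3.64 for C3 and -2.12 for Serping1 on the log2 scale, with adjusted p from 3.31e-05 to 0.000168 by edgeR. All genes were called in 20.8% of 15096 cases for that pair, in 37.3% of 15866 for osteoblast-like cells, in 46.5% of 15709 for chondrocyte-like cells and in 24.2% of 15771 for endothelial-like cells. C4b differed least from chondrocyte-like cells, by -0.94 ± 0.30 (adjusted p = 0.0324 by edgeR), and the call was lost without the block (-0.93, adjusted p = 0.107 by edgeR) and without Fracture preparation 1 (-0.65, adjusted p = 0.185 by edgeR). Against smooth muscle-like cells C1ra, C4b and Serping1 differed, where 17.6% of 14410 genes did, and C3 gave -1.01 ± 0.78 (adjusted p = 0.444 by edgeR).

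BMSC-like cells were then sub-clustered together with the osteoblast-like and fibroblast-like cells. The dpMSC-like cells, named after the diaphyseal stromal cells of the study, made up 67.0% and 73.5% of BMSC-like cells in Control and 40% and 38.8% in Fracture. Unnamed sub-clusters held 2.96% and 1.07% of BMSC-like cells in Control and 17.1% and 18.4% in Fracture. Of the mpMSC-like (metaphyseal) cells, 113 of 884 and 69 of 498 in Control were osteoblast-like by class. In Fracture 100 of 531 and 116 of 577 were. All 4 genes were higher in dpMSC-like than in mpMSC-like cells in every preparation, and all 4 fell in both subclasses. In dpMSC-like cells C1ra went from 536 and 561 CPM to 111 and 126 CPM (-1.97 ± 0.11, adjusted p = 0.000556 by edgeR). C4b went from 639 and 753 CPM to 31.0 and 73.0 CPM (-3.50 ± 0.44, adjusted p = 0.0031 by edgeR). Serping1 went from 3215 and 2938 CPM to 515 and 720.1 CPM (-2.07 ± 0.22, adjusted p = 0.00185 by edgeR). In dpMSC-like cells 54.5% of 13661 genes were called. In mpMSC-like cells, where 28.6% of 12456 genes were called, C1ra went from 97.1 and 111 CPM to 30.1 and 29.3 CPM, C4b from 135 and 178 CPM to 17.4 and 18.8 CPM, and Serping1 from 616 and 645 CPM to 187 and 186 CPM. Their log2 changes were -1.66, -2.96 and -1.61, with adjusted p from 0.00223 to 0.00263 by edgeR.

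C3 behaved differently in the 2 subclasses. In mpMSC-like cells it went from 32.2 and 38.1 CPM to 3.57 and 3.24 CPM, a 9.26-fold fall (-3.21 ± 0.18, adjusted p = 0.00223 by edgeR). In dpMSC-like cells it went from 565 and 543 CPM to 184 and 312 CPM, a smaller fall (-0.92 ± 0.27, adjusted p = 0.0368 by edgeR). The difference of 2.30 ± 0.25 passed the test (adjusted p = 1.09e-06 by edgeR), as it did for 28.7% of 13611 genes. For Serping1 the difference of -0.48 ± 0.14 passed with the block (adjusted p = 0.0161 by edgeR) but not without it (-0.46, adjusted p = 0.213 by edgeR) or without Fracture preparation 1 (-0.25, adjusted p = 0.302 by edgeR). It was not called for C1ra (adjusted p = 0.0961 by edgeR) or C4b (adjusted p = 0.0579 by edgeR). Part of the dpMSC-like C3 came from cells of another class. In Fracture, 25 and 28 cells that the first clustering put among the fibroblast-like cells held 383 and 629 of the 859 and 1531 C3 UMIs. With only cells that were also BMSC-like, C3 went from 566 and 541 CPM to 109.8 and 202 CPM (-1.59 ± 0.30, adjusted p = 0.0106 by edgeR). At a finer clustering resolution of 0.2 the change in dpMSC-like cells was 0.14 (adjusted p = 0.64 by edgeR). The size, the direction and the call of this change thus depended on where the subclass was drawn. The name was also strained in Fracture. The 6 dpMSC markers summed to 48724 and 42160 CPM in Control dpMSC-like cells and 2658 and 3478 CPM in Fracture dpMSC-like cells, below the 6749 and 7348 CPM of Control mpMSC-like cells, and these complement genes moved with them. The part of cell identity in the complement changes was not tested.

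In the osteoblast-like subclass, where 15.4% of 13494 genes were called, C4b and Serping1 fell as in the class. C4b was 11.4 and 8.88 CPM in Control and 2.96 and 3.21 CPM in Fracture. Serping1 was 32.4 and 26.5 CPM in Control and 22.9 and 20 CPM in Fracture. The Serping1 change of -0.54 ± 0.11 (adjusted p = 0.0413 by edgeR) was not called without doublets (-0.31, adjusted p = 0.105 by edgeR) or with the preparation as a block (-0.53, adjusted p = 0.0502 by edgeR). Without Fracture preparation 1 or 2 neither gene was called, with adjusted p of 0.119 and 0.111 for C4b and 0.215 and 0.254 for Serping1 by edgeR. At resolution 0.08 the fibroblast-like cells did not give a subclass of their own name. In Control 376 of 380 and 134 of 135 fell in sub-clusters that stayed unnamed, as did 657 of 683 and 778 of 806 in Fracture. The largest of these was led by Cilp and Cytl1. It carried 7 of 8 chondrocyte markers and also a share of 0.86 of the fibroblast markers, so it was left unnamed as mixed. At resolution 0.2, sub-clusters of 1456 and 89 cells were named fibroblast-like and another of 992 cells chondrocyte-like. Over fibroblast-like cells the 8 chondrocyte markers summed to 11478 and 7100 CPM in Control and 15795 and 13517 CPM in Fracture, while the 7 fibroblast markers summed to 21498 and 23147 CPM and 7845 and 8479 CPM. Their part in the rise of C3 was not tested.

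Among the stromal classes, chondrocyte markers were also higher in Fracture in 3 others. In endothelial-like cells their sum was 2116 and 928 CPM in Control and 13520 and 13716 CPM in Fracture, and in BMSC-like cells 952 and 429 CPM against 3276 and 3568 CPM. In smooth muscle-like cells it was 629 and 125 CPM against 10729 and 4283 CPM. Of the 8 markers all 8 were higher in both Fracture preparations in these classes. In osteoblast-like cells the sum was lower in Fracture, 3275 and 2747 CPM against 2347 and 2168 CPM, although 7 of the 8 markers were higher and 1 was lower. The BMSC markers ran the other way in endothelial-like cells, 1894 and 1367 CPM in Control and 650 and 722 CPM in Fracture. Of the 7, 4 were lower in both Fracture preparations, and the sum moved with C1ra and C4b in that class. Their part in those falls was not tested.

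Counting cells in place of UMIs gave the same picture for BMSC-like cells. Each cell was thinned to 1000 UMIs, which left out 67 and 1 shallower Control cells. C3 was found in 22.4% and 24.3% of Control cells and 3.28% and 3.43% of Fracture cells. C4b was found in 34.9% and 41.4% against 3.58% and 4.82%, C1ra in 29.7% and 33.1% against 8.06% and 6.3%, and Serping1 in 72.4% and 72.3% against 21.6% and 27.1%. Without thinning, the C3 shares were 43.1% and 51.9% against 9.25% and 11.3%, at median depths of 5291 and 6806 UMIs in Control and 8320 and 8592 in Fracture. Erythroid-like cells, which should lack these genes, gave a background of 0% to 0.485% for C3, 0% to 0.323% for C4b, 0% to 0.646% for C1ra and 0% to 1.94% for Serping1 after thinning, at median depths of 2915 to 8554 UMIs. A two-sided exact permutation test over 2 against 2 preparations cannot go below p = 0.333, and each of the 4 genes reached that p.

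The shares of the fibroblast-like cells moved with the levels of C3, from 6.15% and 5.97% to 9.08% and 11.2%. For C4b they did not, with 4.01% and 4.48% in Control and 4.39% and 4.22% in Fracture, although its level fell. Chondrocyte-like cells with C4b went from 16.8% and 13% to 2.2% and 2.0%. Smooth muscle-like cells with Serping1 were 34.8% and 41.3% in Control and 46.2% and 52.0% in Fracture. C3 was found in 0.291% and 0.295% of chondrocyte-like cells in Control and in 0.912% and 0.842% in Fracture. The Control shares lay within the erythroid-like background range given above, and both Fracture shares lay above it.

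**Figure D3:**
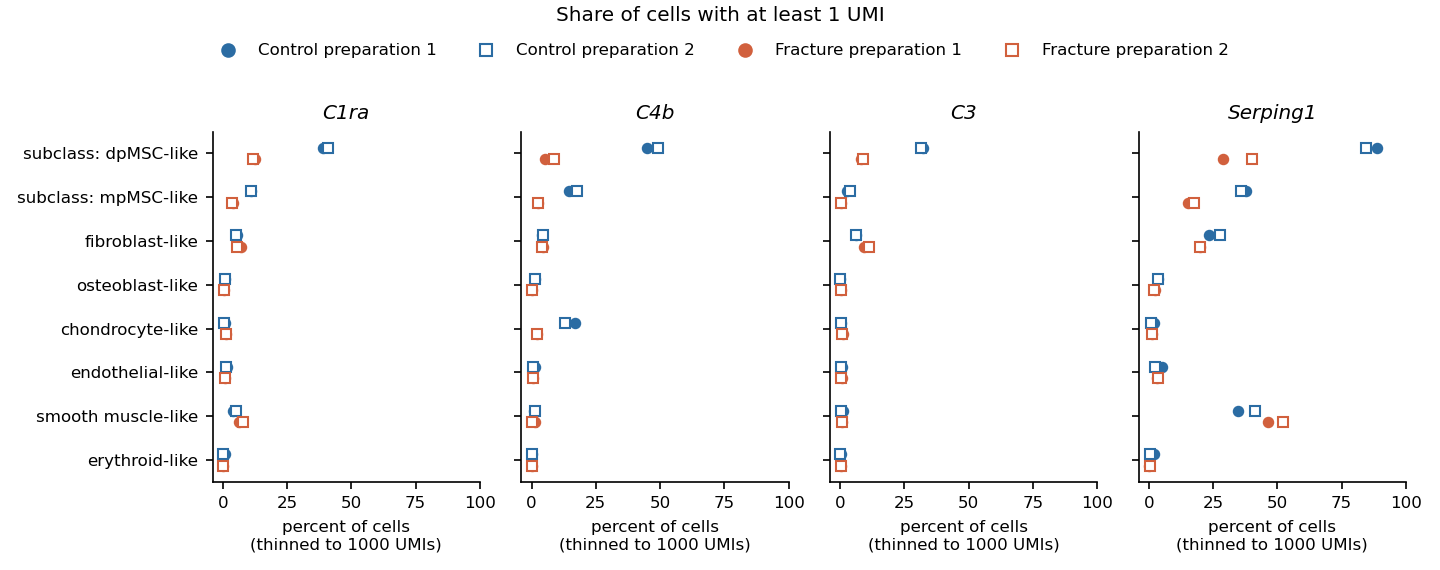
Percent of cells with at least 1 UMI of each gene after thinning to 1000 UMIs, by class, with dpMSC-like and mpMSC-like subclasses at the top and erythroid-like cells, the background, at the bottom; circles are preparation 1 and open squares preparation 2. The largest gaps lie in dpMSC-like cells, for Serping1 88.5% and 84.6% in Control against 28.7% and 40.1% in Fracture.

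As a result of these changes and of the cell numbers, complement UMIs lay in other cells after fracture. BMSC-like cells held 83.7% and 91.1% of all C3 UMIs in Control and 18.5% and 22.9% in Fracture. Fibroblast-like cells held 4.98% and 1.51% in Control and 49.4% and 51.9% in Fracture. For C4b the chondrocyte-like cells held 44.1% and 18.8% in Control and 71.9% and 69.3% in Fracture. C1ra UMIs in Fracture lay in several classes, with 28.7% and 29.6% in BMSC-like, 20.8% and 23.1% in fibroblast-like and 39.2% and 37.7% in chondrocyte-like cells. Serping1 in BMSC-like cells fell from 82.6% and 90.7% of its UMIs to 37.7% and 38.1%. These are shares of cells in suspension, with 2568 and 1688 BMSC-like cells in Control and 1005 and 1079 in Fracture, and 380 and 135 fibroblast-like cells against 683 and 806. Over all stromal cells together, mean C4b was 8.26-fold, Serping1 7.03-fold, C1ra 5-fold and C3 2.92-fold higher in Control than in Fracture, where a change per cell and a change in cell numbers cannot be told apart.

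**Figure D4:**
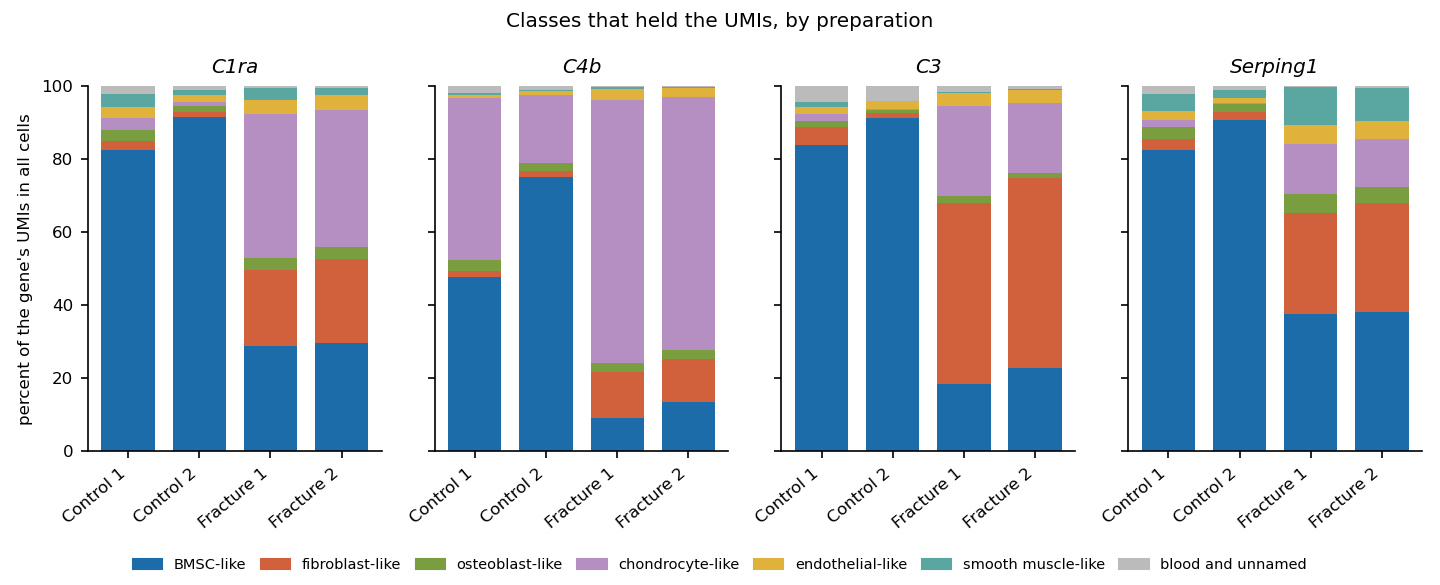
Percent of each gene's UMIs, over all cells of a preparation, that lay in each class. The BMSC-like part of C3 shrank from 83.7% and 91.1% in Control to 18.5% and 22.9% in Fracture, and the fibroblast-like part grew to 49.4% and 51.9%.

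Cfd encodes factor D, the protease that activates factor B and a secreted product of fat cells, and lies at 79890853 to 79892655 on chromosome 10 (GRCm38). Its UMIs were concentrated in few cells. BMSC-like cells held 86.6 and 16.5 CPM in Control and 0.103 and 130.0 CPM in Fracture, so that the preparations of each group disagreed and no change was called (log2 difference 0.54 ± 2.06, adjusted p = 0.841 by edgeR). In Control preparation 1 a single BMSC-like cell held 1239 of the 1704 Cfd UMIs of all cells. It had been called as a doublet. Cells with at least 100 Cfd UMIs numbered 5 in all, with 1239, 182, 300, 416 and 699 UMIs. All 5 were dpMSC-like, 1 in each Control preparation and 3 in Fracture preparation 2, and every one also held UMIs of the fat cell genes Adipoq, Lpl, Plin1, Cidec and Fabp4. Adipoq and Lpl were also among the markers that named the dpMSC-like subclass. Of its other markers, Cxcl12 had 7 to 337 UMIs in these cells. Lepr had 2 UMIs in the cell of Control preparation 2 and 0 in the others. Other dpMSC-like cells were not set beside them. These cells and genes were chosen after the values were seen.

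Endothelial-like cells gave the one replicated Cfd result. They held 41.2 and 45.8 CPM in Control and 1.07 and 0 CPM in Fracture, or 383, 374, 12 and 0 UMIs. The fall was called (log2 change -6.31 ± 0.91, adjusted p = 0.0144 by edgeR), in a class where 33.0% of 14418 genes and 3 of 5 members tested were. The 0 of Fracture preparation 2 allows up to 0.219 CPM, a limit of 3 counts that covers counting error only. Cfd was spread over 79 and 65 endothelial-like cells in Control, and the cell of most UMIs held 8.88% and 10.4% of them. In Fracture preparation 1 a single cell held 9 of the 12 UMIs. Without doublets the change was -6.24 ± 0.90 (adjusted p = 0.0141 by edgeR). In Fracture, 2 and 0 cells held it. After thinning, 2.25% and 2.73% of Control cells and 0.0825% and 0% of Fracture cells held a UMI, against at most 0.0564% of erythroid-like cells.

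Endothelial-like cells with Cfd were set beside those without it, a choice made after their values were seen. Stab2, a scavenger receptor that marks the sinusoidal endothelium of bone marrow, was found in 94.9% and 96.9% of the Control cells with Cfd and in 27.0% and 39.5% of those without. In Fracture it was found in 22.2% and 22.0% of the cells without Cfd. Gja5, an arterial connexin gene, was found in 2.53% and 1.54% of the Control cells with Cfd and in 16.0% and 12.4% of those without. Most Control cells with Cfd therefore also held Stab2. Whether these cells were fewer or had less Cfd each in Fracture was not tested.

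**Figure D5:**
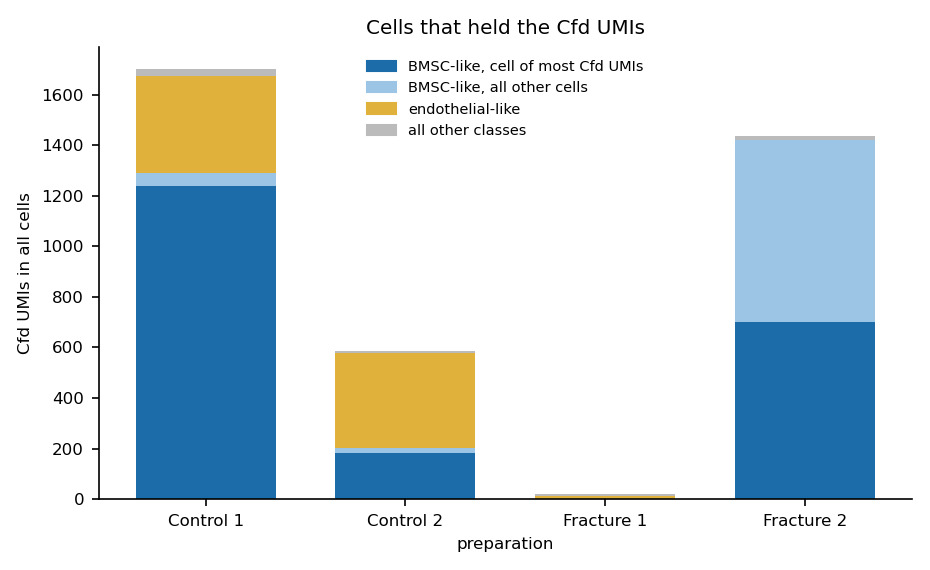
Cfd UMIs in all cells of each preparation, split into the BMSC-like cell with the most, the other BMSC-like cells, endothelial-like cells and all other classes. A single cell held 1239 of 1704 UMIs in Control preparation 1, endothelial-like cells held 383 and 374 UMIs in the Control preparations, and Fracture preparation 1 held 21 UMIs in all.

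Cfb, which encodes the serine protease precursor of the alternative pathway convertase, was close to undetected, with 4, 6, 0 and 2 UMIs over all cells of the 4 preparations in the order Control 1, Control 2, Fracture 1 and Fracture 2. BMSC-like cells held 3 and 5 of them in Control and 0 in Fracture, where a count of 0 allows up to 0.31 and 0.275 CPM. It passed the filter on low counts in no class and was not tested. Its gene, at 34856374 to 34862518 on chromosome 17 (GRCm38), shares 79.5% of its exonic bases, and 73.7% of its last 300 exonic bases, with the gene Gm20547 on the same strand. How reads in the shared part were counted is not given in the sources used here, and its part in the low count was not tested.

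Blood cells left after the depletion were few in Fracture, with 78 and 75 granulocyte-like and 211 and 284 erythroid-like cells. Granulocyte-like C3 was 7.95 and 12.2 CPM in Control and 59.9 and 40.7 CPM in Fracture, from 43 and 30 Fracture UMIs, a log2 difference of 2.27 ± 0.34 that was not called (adjusted p = 0.0971 by edgeR). By edgeR 0 of 12141 genes (0%) were called in these cells and 0 of 10372 (0%) in erythroid-like cells, while 2846 and 2217 genes had an unadjusted p under 0.05 and DESeq2 called 1184 and 949. Granulocyte-like C3 was among the genes called by DESeq2 (adjusted p = 7.58e-06). The difference from the change in BMSC-like cells was called for C3 and C1ra against granulocyte-like cells, where 10.2% of 15738 genes were, and for C1ra against erythroid-like cells, where 11% of 15392 were. Monocyte-like and megakaryocyte-like cells, with as few as 13 and 19 cells in a preparation, were not tested.

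The rest of the complement system was described from a list of 48 other genes, 44 of which were in the tables. In BMSC-like cells 24 passed the filter on low counts, and of these 17 fell, 1 rose and 6 were not called, with a median log2 change of -1.79 against -0.03 over all genes tested, of which 51.6% were called. C1s1, the partner protease of C1r, fell from 277 and 304 CPM to 74.2 and 83.9 CPM. C2, which C1s cleaves, fell from 31.7 and 41.6 CPM to 12.3 and 11.2 CPM. C6, a protein of the terminal pore, fell from 30.6 and 48.4 CPM to 6.09 and 6.04 CPM. Csmd1, a membrane regulator, fell from 122 and 167 CPM to 14.4 and 15.6 CPM. Clu, a chaperone that also blocks the terminal pore, fell from 780.2 and 747 CPM to 133 and 141 CPM. The gene that rose was Cd59a, which encodes a membrane inhibitor of the terminal pore, from 18.2 and 16.4 CPM to 34.5 and 36.5 CPM. For these 6 genes the adjusted p by edgeR ran from 0.0012 to 0.00426. Colec12, a scavenger receptor with a collectin domain, fell from 472 and 431 CPM to 278 and 290.4 CPM (adjusted p = 0.0104 by edgeR).

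Other classes differed in this list as well. In fibroblast-like cells 16 genes were tested and 7 fell, where 17.0% of all genes were called, and the median log2 change was -1.03 against 0.00 over all genes. Clu had its highest level there, 6727 and 3491 CPM in Control, and went to 162 and 223 CPM in Fracture (-4.66 ± 0.44, adjusted p = 0.00701 by edgeR). Cd55, which speeds the decay of C3 convertases on membranes, went from 174 and 406 CPM to 83.1 and 79.9 CPM in the same cells (adjusted p = 0.0418 by edgeR). Schwann cell markers in that class summed to 539 and 884 CPM in Control and 2.88 and 4.43 CPM in Fracture, with 4 of 4 lower in both Fracture preparations, and their part in the falls of Clu, Cd55 and C4b was not tested. In osteoblast-like cells 2 of 15 listed genes rose, where 17.3% of all genes were called. Cd59a was highest there, and 73.2 and 65.9 CPM in Control against 63.4 and 66.1 CPM in Fracture were not called different (adjusted p = 0.201 by edgeR). In chondrocyte-like cells 6 of 24 rose and 5 fell, where 37.3% of all genes were called. In endothelial-like cells 1 of 21 rose and 6 fell, a share close to the 33.0% of all genes, and in smooth muscle-like cells, where 28.6% of 10159 genes were called against 1 of 4 members, 2 of 11 rose and 2 fell. C1s1 had its highest mean over the 4 preparations in smooth muscle-like cells, although its Control level was higher in BMSC-like cells, and it fell from 271 and 295 CPM to 170.1 and 182 CPM (adjusted p = 0.0186 by edgeR). Cr1l, a membrane regulator of C3 convertases in rodents, was highest in endothelial-like cells and fell from 129 and 131 CPM to 86.0 and 84.8 CPM (adjusted p = 0.012 by edgeR). Vtn, the gene of vitronectin, a soluble inhibitor of the terminal pore, rose in smooth muscle-like cells from 30.2 and 38.8 CPM to 78.2 and 56.7 CPM (adjusted p = 0.0256 by edgeR). Cd93, a receptor of endothelial cells, stayed level in endothelial-like cells at 1170 and 1153 CPM against 1080.5 and 1105 CPM (adjusted p = 0.767 by edgeR).

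Over the 24 sums of 6 classes in 4 preparations, 6597 genes were ranked by the correlation of their log2(CPM + 1) with that of each member. The 3 genes most like C1ra were Fzd1 (Pearson's r = 0.952), Pgrmc1 (0.948) and Serping1 (0.943). For Serping1 they were Hmgn3 (0.963), Parp3 (0.957) and Ank3 (0.95). For C4b they were Smo (0.913), Efemp1 (0.908) and Snx21 (0.894), and for C3 Rin2 (0.92), Ltbp2 (0.915) and Acvr1 (0.9). Cfd had Irx3 (0.8), Arrdc4 (0.789) and Fmo1 (0.785) nearest, and Cfb, at a mean of 0.0377 CPM, Ghr (0.81), Stat5a (0.793) and Dlg5 (0.777). These sums share libraries and suspensions, and the values are a description.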

How the data were processed

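Bone stromal cells of 4 preparations (2 per group, 2 libraries each) were sequenced by the authors on 10x Chromium v3 3′ libraries. The deposited values were raw UMI counts per gene and cell. The submitters' processing notes name the mm10 build, bcl2fastq 2.19.1.403, UMI-tools 1.0.0, STAR 2.7.3a and featureCounts 1.6.4 of Subread, whereas the study's methods name STARsolo with GENCODE M23, and which of them made these counts could not be settled.

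The filters kept cells of 500 to 6000 genes with no more than 25% mitochondrial UMIs, and the 26357 genes seen in 3 or more cells. Libraries were integrated in Seurat 5.3.0 on 1931 variable genes, with cell cycle genes and all complement genes removed, and clustered on 12 components at resolution 0.1. The 3 classes BMSC-like, fibroblast-like and osteoblast-like were sub-clustered on 13 components at resolution 0.08. A cluster was named from at least 3 markers of a list at 2-fold over the other clusters and in 10% of its cells. One cluster of 27 cells was left unnamed by a rule chosen after the clusters were seen, that it carried over 50% of a second list. The same rule left a sub-cluster of 2020 cells unnamed. Scrublet (scanpy 1.11.5) called 722 cells (1.59%) as doublets. They were kept, and each fit was repeated without them.

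Counts were summed per preparation and class and tested with edgeR 4.0.16 (quasi-likelihood, Benjamini-Hochberg over all genes tested, threshold 0.05, R 4.3.3), and with DESeq2 1.42.0 as an alternative. Classes with under 20 cells in a preparation were not tested. The difference of the fracture change between 2 classes was tested with the preparation as a block. On simulated data edgeR recovered 82.1% to 93.9% of genes changed 4-fold in the 6 stromal classes, and 0% in granulocyte-like cells. For 4-fold differences of the change between BMSC-like and another stromal class it recovered only 42.0% to 54.5%. Against granulocyte-like and erythroid-like cells it recovered 14.5% and 18.0%. Members and lists were chosen with earlier results of these data known. Of the other complement genes, those with a mean of at least 20 CPM in a stromal class were named, apart from 1 that is not reported here. Limits for counts of 0 cover counting error only. The ± values are SE from the edgeR fits, which include the spread between preparations.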

Additional observations from a re-analysis of the deposited data

Results flagged for a closer look

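Of 40 tests of whether the fracture change of a complement gene differed between 2 classes or subclasses, 26 passed the threshold. Each did so by the test of the difference itself (edgeR quasi-likelihood test, preparation as a block). Over all genes tested, the share that passed ran from 10.2% against granulocyte-like cells to 46.5% against chondrocyte-like cells. Values are log2 differences of the change, BMSC-like minus the other class. For C1ra they were -2.72 against fibroblast-like, -1.74 against osteoblast-like, -3.08 against chondrocyte-like, -1.34 against endothelial-like, -1.71 against smooth muscle-like, -3.19 against granulocyte-like and -3.19 against erythroid-like cells. For C4b they were -2.74 against fibroblast-like, -1.97 against osteoblast-like, -0.94 against chondrocyte-like, -2.85 against endothelial-like and -2.41 against smooth muscle-like cells. For C3 they were -3.64 against fibroblast-like, -2.09 against osteoblast-like, -3.87 against chondrocyte-like, -1.91 against endothelial-like and -4.21 against granulocyte-like cells. For Serping1 they were -2.12 against fibroblast-like, -1.75 against osteoblast-like, -2.33 against chondrocyte-like, -1.69 against endothelial-like and -2.78 against smooth muscle-like cells. The adjusted p of these 22 values ran from 4.96e-07 to 0.0324 by edgeR, and those against blood classes rest on as few as 3 C1ra UMIs in a Fracture preparation.

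Cfd differed by 7.08 between BMSC-like and endothelial-like cells (adjusted p = 0.0383 by edgeR) and by 5.81 between dpMSC-like and mpMSC-like cells (adjusted p = 0.00809 by edgeR), where 5 cells held most of its UMIs outside endothelial-like cells. Between dpMSC-like and mpMSC-like cells C3 differed by 2.30 and Serping1 by -0.48. No library stood apart from the other 3 of its group in 12 groups of 4 libraries tested.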

How the results depend on the processing

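The 4 calls in BMSC-like, dpMSC-like and mpMSC-like cells were made by edgeR and DESeq2 and without either preparation of a group, and C3 in BMSC-like cells was lost when cells were placed by marker sum and in dpMSC-like cells at resolution 0.2 and with no filter on low counts. Of the single-gene values recomputed, 657 kept their direction and side of the threshold, 59 lost the call, 38 gained it and 38 turned. Without 1 preparation, the members called ranged from 0 to 4 in fibroblast-like (2 with all), 0 to 3 in osteoblast-like (2), 1 to 4 in chondrocyte-like (3), 0 to 4 in endothelial-like (3), 0 to 3 in smooth muscle-like (1), 0 to 1 in erythroid-like (0) and 0 to 3 in sub-clustered osteoblast-like cells (2). In the 5 stromal classes other than BMSC-like, the lowest count came without either Fracture preparation. That leaves 1 Fracture sample, assumed to vary like the Control samples. For differences of the change, the range was 1 to 5 against endothelial-like (5), 0 to 4 against granulocyte-like (2), 0 to 2 against erythroid-like (1) and 2 to 5 between dpMSC-like and mpMSC-like cells (3).

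With cells placed by marker sum, 0 members were called in fibroblast-like, 1 in osteoblast-like and 1 in endothelial-like cells. With DESeq2, 0 were called in smooth muscle-like and 1 in granulocyte-like cells, and with no filter on low counts 1 in granulocyte-like cells. Without doublets, 0 were called in smooth muscle-like and 1 in sub-clustered osteoblast-like cells, where Serping1 was lost, and 4 and 0 differed against granulocyte-like and erythroid-like cells. The smaller chondrocyte-like cluster alone gave 1, and cells that were also BMSC-like gave 5 differences between dpMSC-like and mpMSC-like cells. The cause was not tested. Over all genes, DESeq2 called 2278 in smooth muscle-like cells, where edgeR called 2901 of 10159. For the other settings, and without 1 preparation, the share of all genes called is not given here. Those counts of members therefore do not separate a loss among the members from a general loss of calls.

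These log2 values turned. By marker sum, C4b in fibroblast-like cells was 0.16, Serping1 0.65 in chondrocyte-like, 0.36 in endothelial-like and 1.46 in erythroid-like cells, C3 1.14 in endothelial-like and 3.05 in smooth muscle-like cells, C1ra 0.071 in smooth muscle-like and C4b 1.15 in granulocyte-like cells. Without doublets, Serping1 was 0.73 in chondrocyte-like and 0.00057 in endothelial-like, C3 1.68 in endothelial-like and C4b 0.30 in granulocyte-like cells. C1ra was -0.12 in the smaller chondrocyte-like cluster, and C3 was 0.14 in dpMSC-like cells at resolution 0.2. Without 1 preparation, Cfd ranged from -8.65 to 2.21 in BMSC-like and -8.34 to 2.84 in dpMSC-like cells, C3 from -0.10 to 0.50 in osteoblast-like, -0.024 to 1.04 in sub-clustered osteoblast-like, -0.33 to 0.077 in endothelial-like and -1.62 to 2.57 in smooth muscle-like cells, and Serping1 from -0.77 to 1.06 in chondrocyte-like, -1.51 to 1.03 in granulocyte-like and -1.66 to 0.012 in erythroid-like cells. The Cfd differences ranged from -8.24 to 5.49 against fibroblast-like, -8.78 to 1.59 against osteoblast-like, -6.86 to 2.46 against chondrocyte-like, -3.03 to 13.8 against endothelial-like, -5.10 to 5.04 against smooth muscle-like, -5.37 to 4.83 against granulocyte-like, -3.13 to 2.57 against erythroid-like and -3.49 to 6.84 between dpMSC-like and mpMSC-like cells.

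The labels do not say whether the preparation numbers pair Control with Fracture. The deviations of same-numbered preparations correlated at -0.0542 to 0.138 over 11 fits. The value of 0.138, in erythroid-like cells, lay above the set threshold of 0.1. With a single difference between preparations in each group, these correlations cannot settle whether the numbers pair. With the number as a replicate block, 40 single-gene values, called or not, kept direction and side of the threshold, Cfd turned to -1.62 in BMSC-like and -0.97 in dpMSC-like cells, Serping1 turned to 0.12 in chondrocyte-like cells, and 1 member was called in sub-clustered osteoblast-like cells, where Serping1 lost the call. Without the block, 1 difference between dpMSC-like and mpMSC-like cells passed.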
